A study of Mus musculus with 2 samples.

Results

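Genes that mark tissue macrophages were followed in skin wounds with and without the transcription factor PU.1. The set holds 38 genes, chosen by symbol as macrophage surface, scavenger, C-type lectin and Ms4a genes, out of 24346 listed genes, and all 38 were listed in both libraries. The wounds were full-thickness incisions in the dorsal skin of 1-day-old C57BL/6J pups, taken 24 h after injury, and the libraries came from a wild-type (WT) and a PU.1 knockout (PU.1-/-) wound of littermates. Each genotype had 1 mRNA library, so there are no replicates, no test between genotypes was possible, and every value below describes these libraries. The design text calls the wounds excisional, and the number and sex of the pups in each library are not stated. No further allele or treatment is given for either group.

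PU.1, encoded by Spi1, is an ETS-family transcription factor that blood progenitors need to form macrophages and other myeloid cells, and it binds purine-rich DNA in the promoters and enhancers of myeloid genes. Mice without it are described as lacking macrophages, neutrophils, mast cells and T cells. Tissue macrophages take up debris and microbes through scavenger receptors and lectins, make complement C1q and lysozyme, and carry paired inhibitory and activating receptors that tune their responses. Several of the 38 genes are also used by neutrophils, megakaryocytes, neurons or fibroblasts, so the label names the cell these genes are best known from, not the only cell that makes them.

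The values are FPKM, the fragments mapped to a gene divided by transcript length and sequencing depth. Spi1 itself stood at 35.4 FPKM in WT against 1.45 in PU.1-/-, a 24.3-fold difference (95% counting interval 18 to 34.2). A gene-level value cannot tell reads of the deleted part from reads of the rest of the gene, so this check of the labels is partial. From the whole-read steps of low values, the WT library held about 1.38e+07 fragments and the PU.1-/- library about 1.58e+07. Xist, which coats the silenced X chromosome, was listed at 0 in WT and at 9.48 FPKM in PU.1-/-, while Uty, Kdm5d, Ddx3y and Eif2s3y of the Y chromosome were between 2.16 and 38.5 FPKM in WT and listed at 0 in PU.1-/-. Genotype and the sex of the pups therefore cannot be told apart, and 2 members, Gpr34 and Vsig4, lie on the X chromosome. All 8 general genes, led by Rplp0, Ppia and Gapdh, were above 0 in both libraries, with a median log2 ratio of -0.04.

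Without PU.1 nearly the whole set was low. A gene was called lower or higher when its FPKM ratio between the libraries was at least 2, with values below 0.1 FPKM raised to 0.1. By this rule 35 of the 38 genes were lower in the PU.1-/- wound, against 4.34% of all listed genes, and none was higher, against 2.32% of all listed genes. At a ratio of 10, 30 of the 38 were lower, against 1.20% of all. The log2 ratio of PU.1-/- to WT had a median of -5.71 across the set, beside -0.01 across the 16298 genes that reached 0.1 FPKM in either library. The summed FPKM of the set went from 1753 in WT to 50.7 in PU.1-/-, or 2.89% of the WT sum. Pf4 alone held 36.2% of the WT sum, and without it 4.33% remained. In RNA of whole tissue, fewer cells of a type and less RNA per cell cannot be told apart.

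What remained fell into 4 levels. In the PU.1-/- library 16 genes were listed at 0, 10 genes rested on 1 to 3 estimated reads, 4 genes had more reads but stayed below 1 FPKM, and 8 genes had at least 1 FPKM. Among the 35 members with at least 1 FPKM in WT, 14 were listed at 0 in PU.1-/-, beside 1.07% of all genes with that WT level. The 8 genes at 1 FPKM or more were Sirpa, Cbr2, Unc93b1, Cd68, Wfdc17, Lst1, Pf4 and P2ry6, and the first 4 of them held 73.7% of the PU.1-/- sum. For a gene listed at 0, the difference is given as a lower bound, computed as if the PU.1-/- library had held 3 reads of it. A listed 0 can also be a failed estimate and not an absence of reads, and the bound would not hold then. Ratios of the other genes carry a 95% interval (exact Clopper-Pearson) from the estimated reads. Bounds and intervals cover counting error only, and rest on a single reference transcript per gene.

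**Figure D1:**
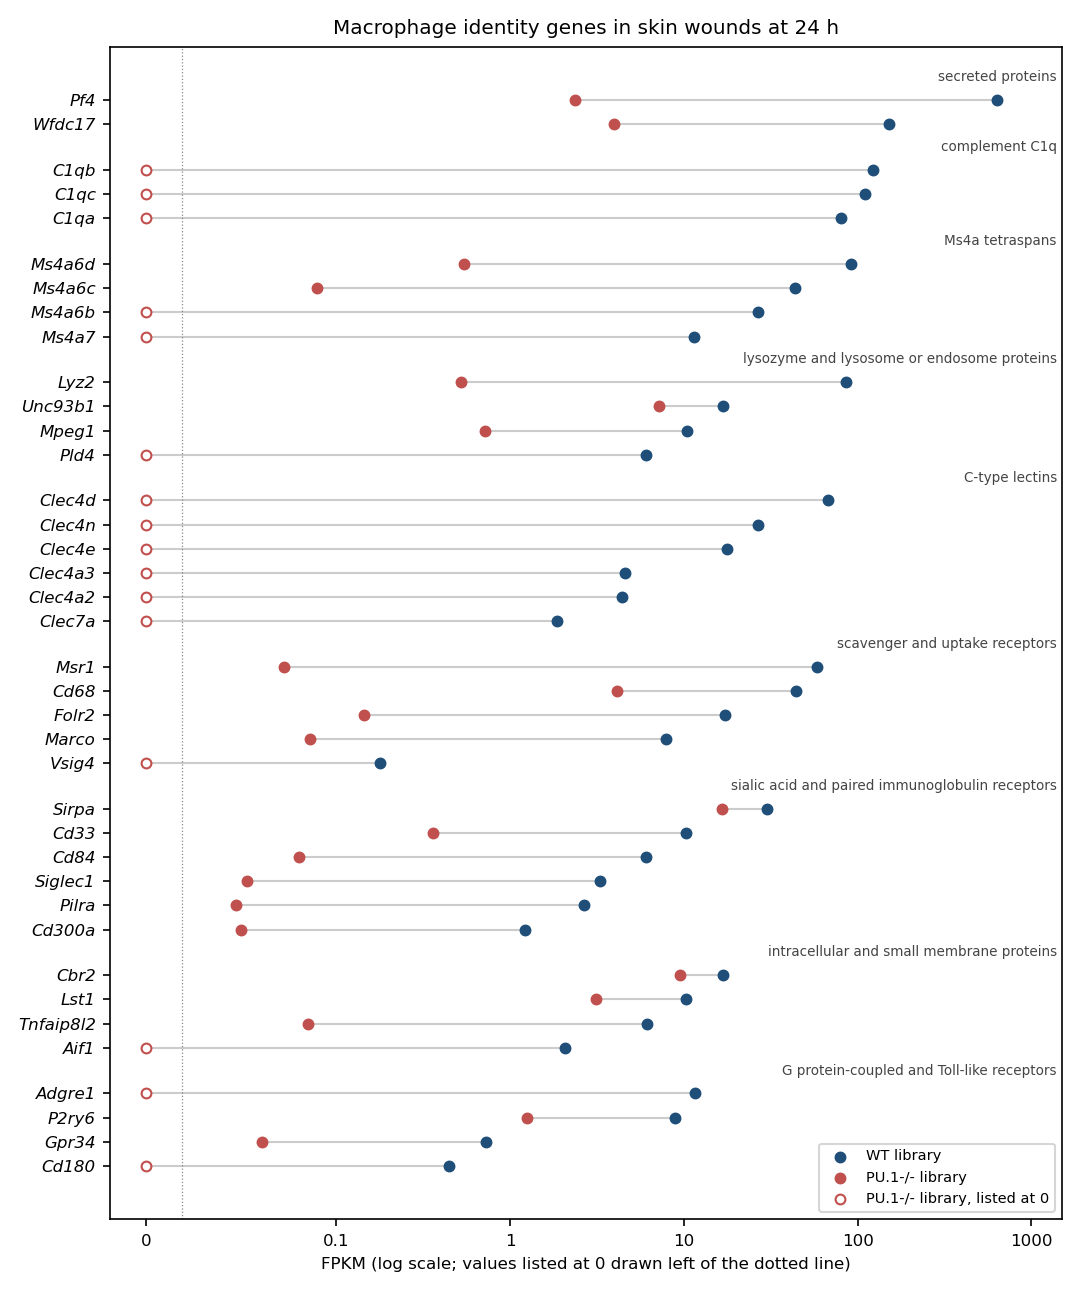
FPKM of each of the 38 genes (log scale) in the WT library (blue) and the PU.1-/- library (red), grouped by role, with a line joining the libraries. Open circles left of the dotted line are the 16 values listed at 0, among them all C1q and C-type lectin genes, while Sirpa and Cbr2 have the shortest lines among the genes above 10 FPKM in WT.

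The promoters of the set were also read for the purine box that PU.1 binds, as a description of sequence only. Windows from 250 bases before to 50 bases after the RefSeq start (GRCm38.p6, the assembly of mm10) were at hand for 27 of the 38 genes. The 11 others are C1qa, Msr1, Unc93b1, Clec4n, Ms4a6d, Siglec1, Sirpa, Adgre1, P2ry6, Gpr34 and Lst1. The letters GAGGAAG, or CTTCCTC on the other strand, occurred in the windows of 10 of the 27 genes (37.0%), against 15.4% of 27025 genes in the RefSeq table. These were C1qc, Cbr2, Cd300a, Cd33, Clec4d, Marco, Pf4, Pilra, Pld4 and Wfdc17. In 6 of them the match lay before the start and outside annotated exons, in Cd33, Wfdc17 and Cbr2 it lay in an annotated exon, and in Pld4 it lay after the start. The 4 sequences printed here are taken from the 6, and belong to a complement, a lectin, a scavenger and a secreted gene. They are not typical of their groups. Among genes with a window, C1qb, Clec4e, Clec7a, Clec4a2, Clec4a3, Cd68, Folr2 and Vsig4 had no match. Each runs 5' to 3' along its gene, with the match in capitals. They are chr4:136893066-136893164 (minus strand) for C1qc, chr6:123261857-123262106 (plus strand) for Clec4d, chr1:120505025-120505274 (minus strand) for Marco and chr5:90772185-90772434 (plus strand) for Pf4.
C1qc: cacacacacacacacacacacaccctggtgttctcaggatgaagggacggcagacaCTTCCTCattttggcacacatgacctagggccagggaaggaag
Clec4d: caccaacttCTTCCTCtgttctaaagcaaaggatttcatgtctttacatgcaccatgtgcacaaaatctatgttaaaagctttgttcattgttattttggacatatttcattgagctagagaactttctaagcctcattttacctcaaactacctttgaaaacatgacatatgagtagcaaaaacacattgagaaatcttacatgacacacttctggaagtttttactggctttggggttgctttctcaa
Marco: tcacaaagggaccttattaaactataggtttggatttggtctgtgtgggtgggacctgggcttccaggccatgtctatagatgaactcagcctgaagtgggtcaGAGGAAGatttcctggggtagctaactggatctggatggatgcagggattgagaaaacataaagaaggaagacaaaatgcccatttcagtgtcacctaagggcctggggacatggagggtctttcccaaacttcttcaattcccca
Pf4: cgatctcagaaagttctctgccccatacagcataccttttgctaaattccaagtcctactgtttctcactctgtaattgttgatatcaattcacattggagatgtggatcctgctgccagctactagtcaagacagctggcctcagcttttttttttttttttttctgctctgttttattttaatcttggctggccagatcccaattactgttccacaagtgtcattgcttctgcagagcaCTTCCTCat
In C1qc the 151 bases next to the RefSeq start are left out, since an annotated exon covers them. The match began 9 bases before the start in Pf4, 146 bases in Marco, 194 bases in C1qc and 241 bases in Clec4d. It read GAGGAAG along the gene in Marco and CTTCCTC in the other 3.

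For comparison, the AP-1 letters TGANTCA, with N any base, occurred in 5 of the 27 windows (18.5%), against 8.97% of all. Their members were Cd68, Cd84, Clec4a2, Folr2 and Ms4a7. The C/EBP letters TTNNGNAA, or TTNCNNAA on the other strand, occurred in 18 (66.7%), against 44.1% of all. No purine box match in these windows shared bases with a match of either. Of the 8 genes that kept at least 1 FPKM, 4 had a window, and the purine box was in those of Pf4, Wfdc17 and Cbr2 but not in that of Cd68. A match of letters is a description of the window and not evidence of binding, and a window without a match says nothing of PU.1 elsewhere at the gene.

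The C1q genes encode the A, B and C chains of the recognition protein of the classical complement pathway. C1qb had 123 FPKM in WT and was listed at 0 in PU.1-/-, at least 576-fold lower. C1qc had 110 FPKM in WT and was listed at 0 in PU.1-/-, at least 584-fold lower. C1qa had 80.6 FPKM in WT and was listed at 0 in PU.1-/-, at least 357-fold lower. The 3 chains were thus within a narrow range of levels in WT, on 933 to 1525 estimated reads each, and all listed at 0 in PU.1-/-.

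These genes lie side by side on chromosome 4 of mm10, from 136880126 to 136898844, with no other listed protein-coding gene between them. The neighbour on one side, Ephb2, an ephrin receptor, had 5.59 FPKM in WT against 4.87 in PU.1-/-, and Epha8 on the other side was listed at 0 in both. Proteins that share the C1q domain or act beside C1q were not called. None of the 12 such genes with at least 1 FPKM was lower or higher, among them C1qbp (118 and 122 FPKM), the adiponectin relatives C1qtnf1 (26.1 and 31.4 FPKM), C1qtnf2 (10.2 and 10.6 FPKM) and C1qtnf6 (27.8 and 26.3 FPKM), and the C1 proteases C1ra (9.54 and 13.4 FPKM) and C1s1 (9.99 and 13.4 FPKM).

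The C-type lectin receptors of the set bind sugars and lipids of microbes and dead cells. All 6 were listed at 0 in PU.1-/-. Clec4d (MCL) had 67.8 FPKM in WT, Clec4n (Dectin-2) 26.5 FPKM and Clec4e (Mincle) 17.7 FPKM, which makes them at least 402-fold, 144-fold and 216-fold lower. The inhibitory receptor gene Clec4a2 had 4.41 FPKM in WT and its relative Clec4a3 4.57 FPKM, at least 53.1-fold and 26.6-fold lower. Clec7a (Dectin-1), the receptor of fungal beta-glucan, had 1.86 FPKM in WT, at least 20.4-fold lower. Their WT levels thus spanned a wide range, while all were listed at 0 in PU.1-/-. Clec4d, Clec4e, Clec4n and Clec7a are also made by neutrophils.

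The 5 Clec4 genes are packed within 337 kb of chromosome 6, from 122952515 to 123289871. Between them lie Clec4a4, Clec4b1 and Clec4b2, all listed at 0 in both libraries. Clec4a1, next to Clec4a3, had 8.72 FPKM in WT and was listed at 0 in PU.1-/-. Beyond it, Necap1, an endocytosis gene, had 14.9 FPKM in WT against 15.4 in PU.1-/-. The Clec4a genes are close copies of each other, and how reads were divided among them is not known. Elsewhere in the family, Clec10a, a macrophage galactose lectin, went from 18.2 FPKM to 0, while Clec2d had 30.5 FPKM in WT against 41.9 in PU.1-/-. Clec7a lies apart from the Clec4 genes on chromosome 6, and its neighbours Clec1a (1.81 and 2.07 FPKM) and Olr1 (1.61 and 2.35 FPKM) were neither lower nor higher. Clec3b, the secreted tetranectin, had 34.6 FPKM in WT against 16.4 in PU.1-/-, a ratio of 2.11 (interval 1.78 to 2.51). Of 9 lectin relatives with at least 1 FPKM in either library, 5 were lower. All of these but Clec3b passed this limit through WT alone, and the share of all genes under it was not counted. Without the limit, 7 of the 21 listed lectin relatives were lower.

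The Ms4a genes encode membrane proteins with 4 passes through the membrane, and those of the set are used by monocytes and macrophages. Ms4a6d had 91.3 FPKM in WT against 0.541 in PU.1-/-, a ratio of 169 (interval 95.5 to 368). Ms4a6c had 43.4 FPKM in WT against 0.0769 in PU.1-/-, about 2 reads, a ratio of 565 (interval 156 to 4667). Ms4a6b had 26.6 FPKM and Ms4a7 11.4 FPKM in WT, and both were listed at 0 in PU.1-/-, at least 209-fold and 82.7-fold lower. All 4 were below 1% of their WT level, with 0.358% of their summed FPKM left. Ms4a6b, Ms4a6c and Ms4a6d are close copies of each other, so the split of reads among them is uncertain, and the sum is the safer value.

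On chromosome 19, from 11321039 to 11604804, these 4 genes are interleaved with relatives that are not in the set. Ms4a4c went from 2.43 FPKM to 0 and Ms4a4b from 0.827 FPKM to 0. Ms4a4d, which lies between Ms4a6b and Ms4a6d, had 2.99 FPKM in WT against 4.06 in PU.1-/-, so it did not share the loss of its neighbours on both sides. Outside the stretch, Ms4a2, the beta chain of the mast cell IgE receptor, went from 0.565 FPKM to 0. Ms4a5, on the other side of Ms4a7, and the B cell gene Ms4a1 (CD20) were listed at 0 in both libraries.

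**Figure D2:**
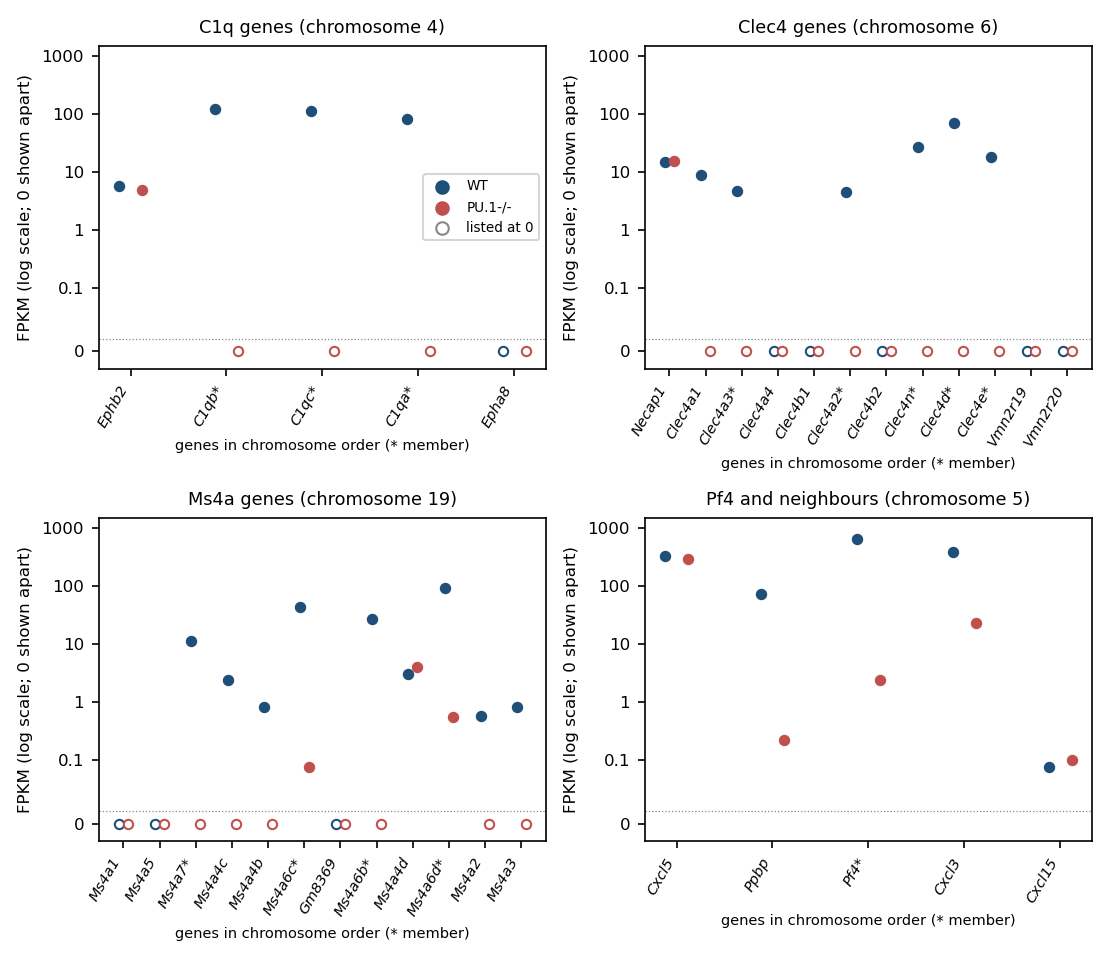
FPKM (log scale, values listed at 0 below the dotted line) of the C1q, Clec4, Ms4a and Pf4 genes and their listed protein-coding neighbours. Genes are in chromosome order, in WT (blue) and PU.1-/- (red), with members of the set starred. Necap1, Ms4a4d and Cxcl5 have similar values in both libraries beside genes that are at or near 0 in PU.1-/-.

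Scavenger and uptake receptors bring modified lipoproteins, microbes and cell debris into the macrophage. Msr1, the class A scavenger receptor, had 58.5 FPKM in WT against 0.0500 in PU.1-/-, about 3 reads against 2772, a ratio of 1171 (interval 363 to 5154). Marco, a bacteria-binding receptor of the same class, had 7.92 FPKM in WT against 0.0707 in PU.1-/-, a ratio of 112 (interval 29.5 to 899). Folr2, a folate receptor of resident macrophages, had 17.3 FPKM in WT against 0.145 in PU.1-/-, a ratio of 120 (interval 37.8 to 1146). These 3 were each below 1% of WT. Folr1, next to Folr2, was listed at 0 in WT and at 0.172 FPKM in PU.1-/-, and C1ql2, next to Marco, was below 0.1 FPKM in both. Vsig4, a complement receptor best known from liver macrophages, had 0.177 FPKM in WT, about 3 reads, and was listed at 0 in PU.1-/-, so no difference was detectable at this depth.

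Cd68, a lysosomal glycoprotein used as a general macrophage stain, did not behave like these. It had 43.9 FPKM in WT against 4.12 in PU.1-/-, on about 623 and 67 reads, a ratio of 10.6 (interval 8.30 to 14), so that 9.39% remained. Its neighbours on chromosome 11 held their level, with 41.1 and 34.5 FPKM for Mpdu1 and 696 and 670 FPKM for the abundant Eif4a1. Among other scavenger and lysosomal membrane genes, Cd163, the haptoglobin-hemoglobin receptor of macrophages, had 29.0 FPKM in WT against 0.0448 in PU.1-/-. Cd36 (135 and 138 FPKM), Scarb1 (79.6 and 98.2 FPKM), Scarb2 (64.6 and 72.3 FPKM), Lamp1 (263 and 239 FPKM), Lamp2 (133 and 151 FPKM), Colec12 (21.2 and 21.6 FPKM) and Scara3 (11.7 and 10.2 FPKM) were neither lower nor higher. Of 11 such genes with at least 1 FPKM, 2 were lower, Cd163 and Stab1. Cd163 passed this limit through WT alone, and the share of all genes under it was not counted.

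Lyz2 had the highest WT level among the genes for lysozyme and proteins of the endosome and lysosome. Lyz2, the lysozyme of macrophages and neutrophils, had 85.5 FPKM in WT against 0.520 in PU.1-/-, a ratio of 164 (interval 88.2 to 368). Its near-identical neighbour Lyz1 had 8.49 FPKM in WT against 0.119 in PU.1-/-, and reads of the pair could be split between them. Pld4, an endosomal nuclease, had 6.03 FPKM in WT and was listed at 0 in PU.1-/-, at least 56.8-fold lower. Mpeg1 (perforin-2), a pore-forming protein of phagocytes, kept more, with 10.4 FPKM in WT against 0.714 in PU.1-/- on about 47 reads, a ratio of 14.5 (interval 10.7 to 19.9).

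Unc93b1, which carries Toll-like receptors to endosomes, was close to the calling limit. It had 16.8 FPKM in WT against 7.14 in PU.1-/-, a ratio of 2.35 (interval 2.0 to 2.75), so 42.6% remained. The relatives of Pld4 were neither lower nor higher, with 40.5 and 44.5 FPKM for Pld3, 12.9 and 11.4 FPKM for Pld2 and 9.08 and 11.6 FPKM for Pld1.

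The receptors of the immunoglobulin superfamily in the set bind sialic acid or pair as inhibitory and activating forms. Siglec1 (CD169), the sialoadhesin of tissue macrophages, had 3.31 FPKM in WT against 0.0304 in PU.1-/-, a ratio of 109 (interval 36.6 to 527). Cd84, a SLAM family receptor, had 6.05 FPKM in WT against 0.0611 in PU.1-/-, a ratio of 99.1 (interval 35.0 to 505). Both rested on about 3 reads in PU.1-/-. Pilra, an inhibitory receptor, had 2.67 FPKM in WT against 0.0264 in PU.1-/-, a single read, with a ratio of 101 (interval 17.5 to 3995). Cd300a, an inhibitory receptor for lipids of dying cells, had 1.22 FPKM in WT against 0.0283 in PU.1-/-, a ratio of 43.1 (interval 11.5 to 363). The low levels of these genes leave their ratios known only within wide limits.

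Cd33, a Siglec, was lower with more reads behind it. It had 10.3 FPKM in WT against 0.358 in PU.1-/-, about 787 and 31 reads, a ratio of 28.9 (interval 20.4 to 43.2). Sirpa, the receptor of the don't-eat-me protein CD47, is also made by neurons and other cells outside the blood. It had 30.1 FPKM in WT against 16.5 in PU.1-/-, the highest value of the set there, a ratio of 1.82 (interval 1.68 to 1.97) that did not reach 2. Its ligand gene Cd47 had 60.4 FPKM in WT against 39.4 in PU.1-/-. Sirpa has 8 annotated transcripts, the most in the set, so its estimated reads depend on the transcript chosen.

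Many relatives of these receptors were low too. Of 12 Siglec, CD300, PILR, SIRP and SLAM genes with at least 1 FPKM in either library, 10 were lower. Among them was Cd300lf, an inhibitory receptor of myeloid cells, from 14.6 FPKM to 0. All 10 passed this limit through WT alone, and the share of all genes under it was not counted. Without the limit, 13 of the 25 listed relatives were lower. Cd300lg, which endothelium makes, had 10.2 FPKM in WT against 13.8 in PU.1-/-. Cd300lg and Cd47 were the 2 that were not lower. Next to members on their chromosomes, Pilrb1, the activating partner of Pilra, went from 2.23 FPKM to 0, and Cd300lb, beside Cd300a, had 1.02 and 0.0235 FPKM. Beside Cd84, Slamf1 had 0.407 and 0.0253 FPKM, and Slamf6 was at most 0.0323 FPKM in both.

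Adgre1 encodes F4/80, the classical surface marker of mouse macrophages. It had 11.6 FPKM in WT, about 485 reads, and was listed at 0 in PU.1-/-, at least 186-fold lower. Cd180 (RP105), a Toll-like receptor homolog, had 0.443 FPKM in WT and was listed at 0 in PU.1-/-, at least 5.73-fold lower. Gpr34, a lysophosphatidylserine receptor, had 0.726 FPKM in WT against 0.0372 in PU.1-/-, a single read, with a ratio of 19.5 (interval 3.06 to 817). These 3 share the direction of the set, while the last 2 were near the limit of detection in WT already.

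P2ry6, a receptor of extracellular UDP, kept more. It had 8.91 FPKM in WT against 1.25 in PU.1-/-, about 214 and 35 reads, a ratio of 7.13 (interval 4.90 to 10.4). P2ry2, next to it on chromosome 7, had 7.80 and 5.73 FPKM, and Gpr82, next to Gpr34, was listed at 0 in both libraries. Among other relatives, Adgre5 (CD97), common to many leukocytes and other cells, had 27.4 FPKM in WT against 21.2 in PU.1-/-. Ly96 (MD-2), the partner of Toll-like receptor 4, had 13.5 FPKM in WT against 10.8 in PU.1-/-. Of 8 such genes with at least 1 FPKM, 4 were lower. These were Tlr4 (8.41 and 3.12 FPKM), P2ry12 (2.95 and 0.177 FPKM), Ly86 (2.11 and 0.240 FPKM) and P2ry13 (1.31 and 0 FPKM). All but Tlr4 passed this limit through WT alone, and the share of all genes under it was not counted.

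The secreted proteins held the highest WT values of the set. Pf4 (platelet factor 4, CXCL4), a chemokine of megakaryocytes that tissue macrophages also make, had 635 FPKM in WT against 2.35 in PU.1-/-, a ratio of 271 (interval 166 to 511). Next to it on chromosome 5, Ppbp, the other platelet chemokine, had 72.0 FPKM in WT against 0.217 in PU.1-/-, and Cxcl3, a neutrophil attractant, 389 and 22.7 FPKM. Cxcl5, on the far side of Ppbp, had 322 and 291 FPKM, and Cxcl15, beyond Cxcl3, 0.0752 and 0.0982 FPKM, so of the 4 neighbours 2 were lower and 2 were not. Because Pf4 and Ppbp are also platelet genes, 8 platelet and megakaryocyte markers were read beside them. Only Ppbp of the 8 was lower, and Itga2b (3.19 and 3.83 FPKM) and Gp1bb (5.25 and 4.99 FPKM) held their level. The median log2 ratio of 0.00 came from genes below 0.1 FPKM in both libraries, where the floor leaves no difference. Only 3 of the 8 reached 1 FPKM in either library, so few of them could show a loss. The part of platelets in the Pf4 values was not tested. Gp6 and Treml1 were listed at 0 in both libraries, and Gp9, Gp1ba and Gp5 were below 1 FPKM in both.

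Wfdc17, a small secreted protein of activated macrophages, had 152 FPKM in WT against 3.94 in PU.1-/-, on about 696 and 21 reads, a ratio of 38.6 (interval 24.7 to 61.9). On chromosome 11 it is flanked on one side by the chemokine genes Ccl3 and Ccl4, which went from 93.1 and 51.0 FPKM to 0, and on the other by Wfdc18, which had 3.49 FPKM in WT against 3.99 in PU.1-/-. Wfdc21 had 251 FPKM in WT against 131 in PU.1-/-, Slpi, an antiprotease of the same fold, 171 and 115 FPKM, and Wfdc12 53.2 and 35.7 FPKM. None of these 3 reached a ratio of 2.

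The last 4 members are intracellular or small membrane proteins. Aif1 (IBA1), an actin-binding protein widely used to stain macrophages and microglia, had only 2.07 FPKM in WT, about 19 reads, and was listed at 0 in PU.1-/-, at least 7.37-fold lower. Tnfaip8l2 (TIPE2), a negative regulator of immune signalling, had 6.10 FPKM in WT against 0.0690 in PU.1-/-, a single read, with a ratio of 88.4 (interval 15.6 to 3587). Their relatives were not lower, with 23.7 and 40.5 FPKM for Aif1l and 22.5 and 23.9 FPKM for Tnfaip8.

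Lst1, a small membrane protein of leukocytes and a near neighbour of Aif1 on chromosome 17, kept 30.0% of its level. It had 10.3 FPKM in WT against 3.11 in PU.1-/-, but on a transcript of 415 bases this came from only about 31 and 11 reads, a ratio of 3.33 (interval 1.58 to 7.14). Cbr2, a carbonyl reductase used as a marker of resident macrophages and abundant in other tissues such as lung, had 16.8 FPKM in WT against 9.55 in PU.1-/-. Its ratio of 1.76 (interval 1.40 to 2.18) was the smallest of the set among genes with a ratio. The other carbonyl reductases held their level, with 30.4 and 27.1 FPKM for Cbr1, 20.4 and 20.6 FPKM for Cbr3 and 16.9 and 16.5 FPKM for Cbr4.

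**Figure D3:**
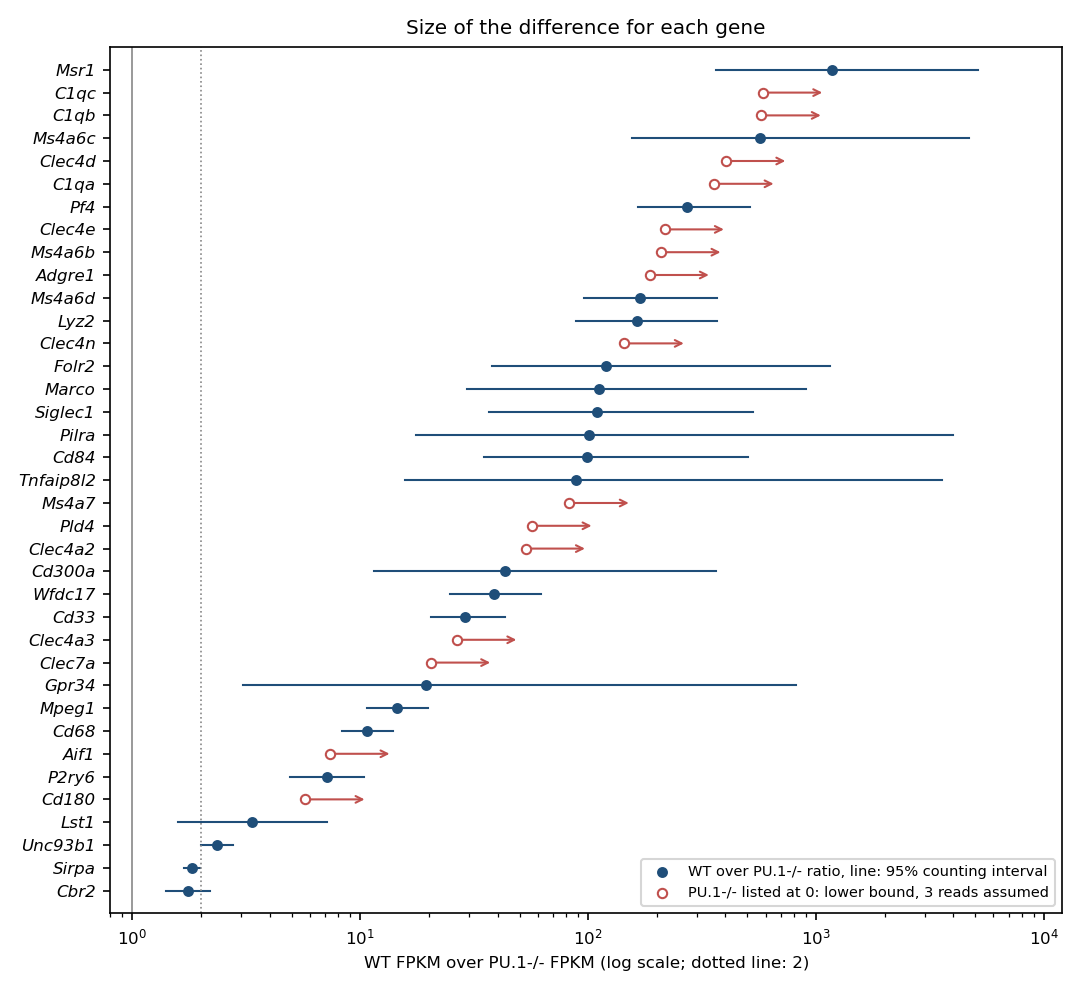
WT over PU.1-/- FPKM ratio (log scale) of the 37 genes with a ratio or a bound. Filled points with lines are ratios with 95% counting intervals, open circles with arrows are lower bounds for genes listed at 0, the solid line marks 1 and the dotted line marks 2. Msr1 has the highest ratio, 1171, and Sirpa and Cbr2 lie below 2.

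Summed by role, the share left rested in several groups on 1 or 2 genes. Of the WT sum, 0% remained for C1q and the C-type lectins, 0.358% for the Ms4a genes, 0.798% for the secreted proteins and 3.43% for the scavenger and uptake receptors. The G protein-coupled and Toll-like receptors kept 5.94%, the lysozyme and lysosome or endosome proteins 7.06%, the sialic acid and paired receptors 31.8% and the intracellular and small membrane proteins 36.1%. Of the PU.1-/- sum, Cd68 held 4.12 of 4.39 FPKM among the scavenger and uptake receptors, and P2ry6 1.25 of 1.29 FPKM among the G protein-coupled and Toll-like receptors. Unc93b1 held 7.14 of 8.38 FPKM, Sirpa 16.5 of 17.1 FPKM, and Cbr2 and Lst1 together all but a trace of 12.7 FPKM in their groups. Taken without the 8 genes that had at least 1 FPKM, the other 30 members kept 0.325% of their WT sum.

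Of the 38 genes, 9 are also well known from neutrophils, namely Lyz2, Clec4d, Clec4n, Clec4e, Clec7a, Lst1, Cd33, Pilra and Cd300a. These 9 kept 1.8% of their summed WT level, and the other 29 kept 3.05%. Neutrophil genes as a list of 13 were lower in 10 cases, with a median log2 ratio of -3.35, and their sum went from 13717 to 4455 FPKM. The most abundant were S100a8, S100a9 and Lcn2, with 6600, 5311 and 1125 FPKM in WT and 2129, 1516 and 779 FPKM in PU.1-/-. These 3 held most of both sums, so the sums say little about the other genes of the list. Of the 13, 5, including Ngp and Retnlg, were listed at 0 in PU.1-/-. Mast cell genes were lower in 6 of 7 cases, with a median of -8.15, and their most abundant members, Tpsb2, Cma1 and Cpa3, were each below 1 FPKM in PU.1-/-. The part of these other cells in the values of the shared members was not tested.

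A further 20 macrophage and monocyte genes outside the set gave 15 that were lower and none higher, with a median log2 ratio of -5.18 and a sum that went from 670 to 35.4 FPKM. Tyrobp, an adaptor of activating receptors, went from 196 FPKM to 0 and F13a1, a coagulation factor subunit of resident macrophages, from 73.9 FPKM to 0. Cd14, the co-receptor of lipopolysaccharide, had 101 FPKM in WT against 5.97 in PU.1-/-. The 5 that were not called were Lyve1 (38.3 and 21.5 FPKM) and Mertk (3.87 and 2.68 FPKM), which lymphatic endothelium and other cells also make, and Cx3cr1, Timd4 and Adgre4, all at most 0.110 FPKM in WT and listed at 0 in PU.1-/-. These 5 were singled out after their values were seen.

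The resident skin cells showed no such loss. None of 8 fibroblast genes, led by Col3a1, Dcn and Col1a2, was called, with a median log2 ratio of 0.17. None of 8 keratinocyte genes, led by Krt14, Krt10 and Krt1, was called, with a median of 0.20. Of 6 endothelial genes, led by Pecam1, Cdh5 and Cldn5, none was lower and 1, Vwf, was higher, with a median of 0.29. Among the relatives of the members as a whole, 73 of 118 had at least 1 FPKM in either library. Of these 25 were lower (16 of them listed at 0), none was higher and 48 were neither, with a median of -0.18. All of the 25 but Stab1, Clec3b and Tlr4 passed the limit through WT alone, and the share of all genes under it was not counted.

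**Figure D4:**
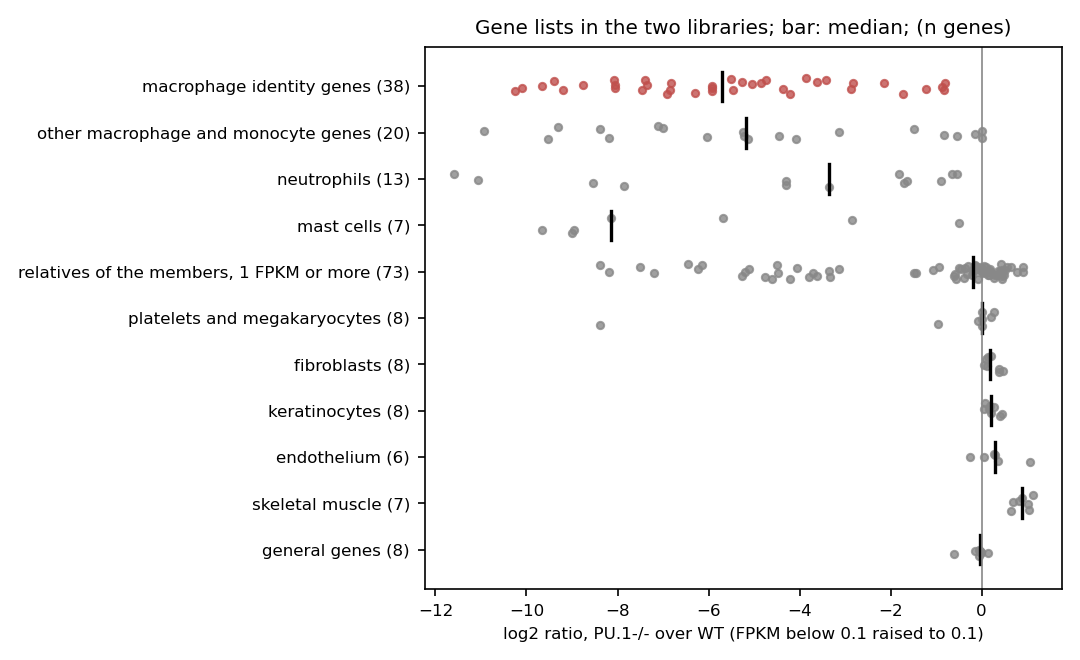
Log2 ratio of PU.1-/- over WT for each gene (points) of the macrophage identity set (red) and of other gene lists (grey), with values below 0.1 FPKM raised to 0.1 and the median as a black bar. The medians are -5.71 for the set, -5.18 for other macrophage and monocyte genes and -0.18 for the relatives with at least 1 FPKM. They lie between -0.04 and 0.89 for platelet, skin, muscle and general genes. The platelet median came from genes below 0.1 FPKM in both libraries.

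Some limits touch single members. Exons of 4 members overlap those of a gene on the opposite strand, by 468 bases for Pilra and Zcwpw1, 182 bases for Cd180 and Mast4, 101 bases for Ms4a6c and BE692007, and 19 bases for Ms4a6b and Gm19261. The libraries were stranded, but whether strand was used in counting is not given in the sources used here. Mast4 had 9.27 FPKM in WT against 11.4 in PU.1-/-, and Zcwpw1 0.502 and 0.312 FPKM.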

How the data were processed

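Bulk mRNA of wound tissue was sequenced as 1 library per genotype. The authors made stranded libraries, read them as single-end reads, mapped them to mm10 and deposited FPKM values, calculated with Cuffnorm according to the methods. The submitters' processing notes name TopHat2 2.1.1, Bowtie2 2.2.8, SAMtools 0.1.18 and Cuffdiff 2.2.1 without their roles. The annotation is not given in the sources used here. FPKM is already scaled for depth and length, so that no count model was used.

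Values below 0.1 FPKM were raised to 0.1, and a ratio of at least 2 was called. Reads were estimated from the value of 1 read in each library and the length of a GENCODE transcript less 200 bases. Of 2357 low values of genes with a single transcript, 79.1% came out within 0.1 of a whole read, and 23016 genes had a length. Positions and neighbours come from RefSeq on GRCm38.p6, and exon overlaps from GENCODE M21. Neighbours were taken among listed protein-coding genes only. Motifs were searched in RefSeq promoters on both strands. Named genes are all members, Spi1, relatives with at least 10 FPKM or next to members, and the 3 genes with the highest WT value of each other list. Genes outside this rule, such as Stab1 and Vwf, serve as examples and were chosen with their values known. The members, lists and rules were chosen with earlier results of these data known. The B cell list is not reported here. The functions were checked on simulated libraries. Alternative floors, pseudocounts, scalings, filters and ratios were tried. Calculations were made in Python 3.11.15 (numpy 2.4.6, pandas 2.3.3, scipy 1.17.1), and plots with matplotlib 3.10.9.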

Additional observations from a re-analysis of the deposited data

How the results depend on the processing

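No paired analysis was possible because each genotype has 1 library, and for the same reason no replicate could be left out. Of 24 alternative values, 19 kept their direction and size, and 5 moved. The number of lower members was 31 with a floor of 1 FPKM, 33 with a pseudocount of 1 FPKM, 38 at a ratio of 1.5 and 33 at a ratio of 4. The count at a ratio of 1.5 takes in Vsig4, which had only about 3 reads in WT. The number stayed at 35 when the libraries were rescaled to equal FPKM sums, a shift of 0.05 on the log2 scale. The share of all genes was not computed at these settings, so these counts have no background beside them. The median log2 ratio of the members was -3.18 with a floor of 1 FPKM, -2.94 with a pseudocount of 1 FPKM and -6.84 over the 28 members with at least 5 FPKM, settings that raise low values or leave out low genes. With values as deposited and members listed at 0 set at their bound it was -6.42. The share of the summed FPKM left was 4.33% without Pf4. At or below 0.1 FPKM in PU.1-/- were 25 members, against 16 listed at 0. Depth limits Vsig4, Cd180, Gpr34 and Aif1 most, and for members at 1 to 3 reads in PU.1-/- the ratio is known only within wide limits.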

Other observations

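The lists of other cells gave values that belong to no comparison of the set. Of 8 dendritic and Langerhans cell genes, 2 were lower and 1 was higher, with a median log2 ratio of -0.01. Only 2 of the 8 reached 1 FPKM in either library, and the median rests on genes near or below 0.1 FPKM. It therefore says little about these cells. The most abundant of the 8 in WT were H2-Ab1, an MHC class II chain (6.91 and 1.28 FPKM in WT and PU.1-/-), Zbtb46 (1.28 and 2.77 FPKM) and Ccr7 (0.294 and 0.0366 FPKM). Of 6 T cell genes, 3 were lower, with Lck at 1.43 and 1.11 FPKM, and Cd3g and Cd3d at 1.24 and 1.10 FPKM in WT and listed at 0 in PU.1-/-.

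Red blood cell and muscle genes went the other way. Of 6 red blood cell genes, 3 were higher in the PU.1-/- wound and none was lower, with a median log2 ratio of 1.10, and Hba-a1, Hbb-bs and Alas2 had 748, 150 and 19.9 FPKM there against 516, 18.4 and 11.9 FPKM in WT. Of 7 skeletal muscle genes, 3 were higher and none was lower, with a median of 0.89. Acta1 had 3224 and 5955 FPKM in WT and PU.1-/-, Tnnc2 1179 and 1844 FPKM, and Ckm 674 and 1080 FPKM. With 1 library per genotype these values have no replicate check.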
